A study of Mus musculus with 36 samples.

Results

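The genes of the complement recognition molecule C1q, *C1qa*, *C1qb* and *C1qc*, are described here together with 5 further complement genes that myeloid cells can express, *C3*, *Cfb*, *Cfp*, *C3ar1* and *C5ar1*. These 8 genes were taken by name from 3 tables of 56026, 56575 and 57252 gene models, and all 8 were present in every table. The samples came from mice labelled wild type and treated with OMV-SIRP-G, OMV-SIRP or phosphate-buffered saline (PBS). OMV stands for outer membrane vesicle, a particle shed by bacteria, which the study's title calls engineered, and the labels do not spell out SIRP or G. The RNA sequenced was from 2 bone marrow populations, monocytes and granulocyte-macrophage progenitors (GMP), and from 2 populations labelled tumour-associated macrophages (TAM), 1 from B16-F10 melanoma and 1 from MC38 tumours, both transplantable mouse tumour lines. Each of the 12 groups had 3 libraries, 36 in all. The titles name the marrow populations, whose cell type label says only that they are marrow cells. The sources used here do not give the age of the mice, the doses or how the cells were isolated. The design text speaks of samples being pooled, and the sources do not tie each library to a mouse of its own. The p-values therefore cover the spread between libraries alone, which may be technical.

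C1q is assembled from A, B and C chains, and it starts the classical complement pathway when it binds antibody bound to its target, dying cells or other surfaces. Most soluble complement proteins come from the liver, but C1q is made mainly by macrophages and related cells, and its chains are common markers of resident and tumour macrophages. C3 is the protein on which all complement pathways converge. Factor B (*Cfb*) is the protease of the alternative pathway, and properdin (*Cfp*) stabilises the enzyme complex that factor B forms. Cleavage of C3 and C5 releases the small peptides C3a and C5a, and *C3ar1* and *C5ar1* encode their receptors on myeloid cells.

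The C1q genes lay side by side in 18675 bases of mouse chromosome 4 (GRCm38), all on the minus strand. *C1qb* (ENSMUSG00000036905) spanned 136880129 to 136886187, *C1qc* (ENSMUSG00000036896) 136889804 to 136893065 and *C1qa* (ENSMUSG00000036887) 136895917 to 136898803. Each of these genes had 3 exons in GENCODE M21, and no other gene of that annotation overlapped them. *C3* (ENSMUSG00000024164) was on chromosome 17 from 57203970 to 57228136 and *Cfb* (ENSMUSG00000090231) on the same chromosome from 34856374 to 34862518. *C3ar1* (ENSMUSG00000040552) was on chromosome 6 from 122847138 to 122856161, *C5ar1* (ENSMUSG00000049130) on chromosome 7 from 16246743 to 16259540 and *Cfp* (ENSMUSG00000001128) on chromosome X from 20925454 to 20931555. *Cfb* shared 79.5% of its exon bases with *Gm20547*, a protein-coding gene model on the same strand, so its reads cannot be assigned with certainty. *Gm20547* was listed at 0 in every library.

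The promoters that RefSeq gives for *C1qb* and *C1qc* are shown. These genes passed or missed the test together in the 6 tumour comparisons, but *C1qa*, *C3ar1* and *C5ar1* had the same calls there. RefSeq promoters were found for 6 of the 8 genes, not for *C1qa* and *Cfb*. Each window holds 250 bases before and 50 bases after the start that RefSeq gives, written along the gene from 5′ to 3′, from build GRCm38.p6, minus strand, at chr4:136886151-136886450 for *C1qb* and chr4:136892865-136893164 for *C1qc*. That start lies 13 bases before the span given above for *C1qb* and 151 bases inside it for *C1qc*. Capitals mark matches to the motifs listed after the sequences.
C1qb promoter: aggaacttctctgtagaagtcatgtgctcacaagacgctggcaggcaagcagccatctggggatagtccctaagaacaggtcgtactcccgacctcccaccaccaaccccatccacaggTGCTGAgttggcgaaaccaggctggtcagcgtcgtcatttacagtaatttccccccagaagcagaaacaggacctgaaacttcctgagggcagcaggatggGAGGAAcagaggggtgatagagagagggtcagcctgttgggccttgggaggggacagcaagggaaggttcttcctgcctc
C1qc promoter: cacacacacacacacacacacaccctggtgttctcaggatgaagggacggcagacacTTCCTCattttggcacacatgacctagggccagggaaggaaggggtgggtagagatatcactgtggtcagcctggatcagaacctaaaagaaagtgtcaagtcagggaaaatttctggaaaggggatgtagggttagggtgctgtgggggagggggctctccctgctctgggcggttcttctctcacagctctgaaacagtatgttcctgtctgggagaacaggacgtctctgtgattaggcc
The motifs searched on both strands were TGCTGA, a half-site of the macrophage factor MAF, GAGGAA, the core bound by the myeloid factor PU.1, TGANTCA, the site of AP-1, and the interferon-stimulated response element. TGCTGA and TGANTCA can share the bases TGA. The *C1qb* window held TGCTGA and GAGGAA on the forward strand, and the *C1qc* window held GAGGAA on the reverse strand, printed as TTCCTC. Of 32851 mouse promoters of the same length, 19.5% held TGCTGA and 28.3% held GAGGAA, so such matches were common. TGANTCA was present in 7.81% and the interferon-stimulated response element in 3.44% of promoters, and neither was found in these windows. Of the windows not shown, *C3ar1* held TGCTGA and TGANTCA, *C5ar1* and *C3* held TGCTGA, and *Cfp* held GAGGAA. A match of letters is a description and does not show binding.

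Depth was 13036567 to 19822660 reads assigned to genes per library, with 12818 to 21580 gene models above 0. Values are FPKM, fragments per kilobase of gene length at a common depth, and they were scaled separately in each of the 3 tables, so tests stayed within a population. The labelled cell types were checked against a list of 15 macrophage identity genes. The list summed to 5467 to 9005 FPKM in GMP and 11230 to 20990 FPKM in monocytes. Its sum therefore does not by itself set macrophages apart from marrow cells, and it was compared within a tumour only. The MC38 libraries labelled TAM under PBS stood apart. Their macrophage identity genes summed to 263 to 542 FPKM, against 2022 to 5506 FPKM in the treated MC38 libraries, and *Mertk* and *Aif1*, markers of mature macrophages, were at 0 in all 3 of them. The 10 neutrophil genes summed to 258 to 574 FPKM in these PBS libraries, with *Ly6g* and *Cxcr2* at 0 in all of them. In MC38 the PBS group thus went against its label, and every MC38 comparison with PBS rests on it. One library labelled monocyte PBS, replicate 2, also stood apart. Its FPKM values summed to 538012, while those of the other 2 summed to 332949 and 332452. In the GMP libraries the neutrophil genes summed to 27455 to 59275 FPKM beside progenitor genes that summed to 5441 to 6769 FPKM. In bulk RNA, fewer cells of a type and less RNA per cell cannot be told apart.

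The marrow populations and the tumour macrophages had a different order of complement genes. In GMP and monocytes *C3* was the highest of the 8 genes in every group, at 334 ± 29.6 FPKM in GMP after OMV-SIRP-G, 460 ± 12.6 FPKM after OMV-SIRP and 399 ± 18.2 FPKM after PBS (SD, n = 3 each). Properdin had the next highest mean in all 6 marrow groups, although it overlapped *C5ar1* in GMP after OMV-SIRP-G. *C1qb* was in the middle of the order there, and *C1qc* and *C1qa* stood below it, at 0.256 ± 0.129 FPKM for *C1qa* and 2.61 ± 1.87 FPKM for *C1qb* in PBS monocytes (SD, n = 3). In B16 TAM the C1q chains came first and *C3* next to last. *C1qb* averaged 2476 ± 15.5 FPKM after OMV-SIRP-G, 1315 ± 289.5 FPKM after OMV-SIRP and 1187 ± 41.8 FPKM after PBS (SD, n = 3 each). In treated MC38 TAM *C1qb* and *C1qa* were also the highest, although *C1qb* and *C1qa* overlapped each other after OMV-SIRP. In PBS MC38 libraries the order was not resolved, since *C1qb*, *C3*, *C1qa*, *C3ar1*, *C1qc* and *Cfp* each overlapped the next gene or ended a run of overlapping genes between 3.48 and 32.7 FPKM. *Cfb* had the lowest mean of the 8 in every group, with at most 1.54 FPKM in any library, but it overlapped the next gene in PBS GMP, in monocytes after OMV-SIRP-G and PBS, and in PBS MC38. Its place is uncertain, since it shares 79.5% of its exon bases with *Gm20547*. These levels come from tables scaled apart and are set side by side without a test.

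**Figure D1:**
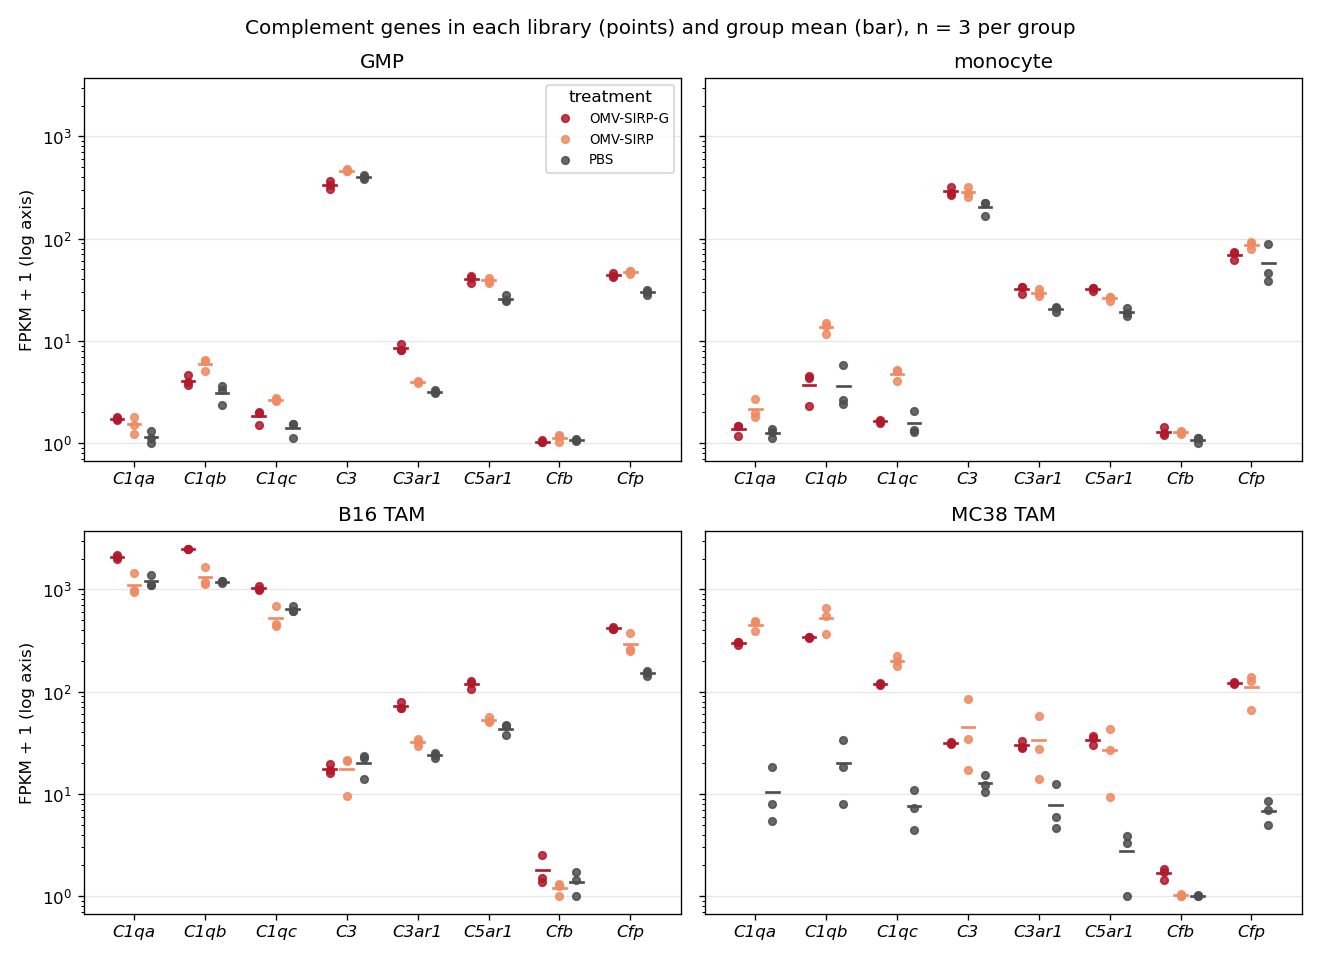
FPKM plus 1 on a log axis for each of the 8 complement genes in each of the 36 libraries (points), with the group mean as a bar, in GMP, monocytes, B16 TAM and MC38 TAM after OMV-SIRP-G, OMV-SIRP and PBS. *C3* is highest in the marrow panels, the C1q chains are highest in B16 TAM, *C1qb* and *C1qa* are highest in treated MC38 TAM, and the PBS libraries of MC38 lie far below the treated ones for the C1q chains, *C5ar1* and *Cfp*.

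A gene was said to rise or fall where the adjusted p of limma, a linear model fitted across all genes of a population, was below 0.05 (Benjamini-Hochberg). Genes with at least 1 FPKM in at least 3 of the 9 libraries were tested, which kept 6 of the 8 genes in GMP and monocytes, without *C1qa* and *Cfb*, and 7 in each tumour, without *Cfb*. *C1qc* passed in both marrow populations only through its OMV-SIRP libraries, so its inclusion there was tied to a difference, and counts without it are also given. In B16 TAM 6 of the 7 tested genes rose after OMV-SIRP-G against PBS, where 7.83% of 12542 tested genes rose, and the same number rose against OMV-SIRP, where 6.35% of genes rose. After OMV-SIRP against PBS 1 rose, where 0.885% of genes did. In MC38 TAM 6 of 7 rose after OMV-SIRP-G against PBS, with a background of 13.1% of 14089 genes, and 6 after OMV-SIRP, with a background of 7.4%. Between OMV-SIRP-G and OMV-SIRP in MC38 TAM limma called none of the 7 and 0.383% of genes in either direction. There 1 of the 7, *C1qc*, was below 0.05 before adjustment and limma voom on recovered reads also called none. In GMP 3 of 6 rose after OMV-SIRP-G against PBS (background 6.76% of 12287 genes) and 5 of 6 after OMV-SIRP (10.6%), which are 3 of 5 and 4 of 5 without *C1qc*. Between OMV-SIRP-G and OMV-SIRP, *C3ar1* rose and *C3* fell, where 14.8% of GMP genes were called. In monocytes 2 of 6 rose after OMV-SIRP-G against PBS (background 1.53% of 12028 genes) and 4 of 6 after OMV-SIRP (3.07%), and 2 fell after OMV-SIRP-G against OMV-SIRP (0.848%). Without *C1qc* these were 2, 3 and 1 of 5. The comparisons within a population share libraries, so these counts are not independent of each other. The median log2 change of the tested complement genes was 1.06 in B16 TAM and 4.07 in MC38 TAM for OMV-SIRP-G against PBS, beside -0.03 and 0.07 over all tested genes.

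**Figure D2:**
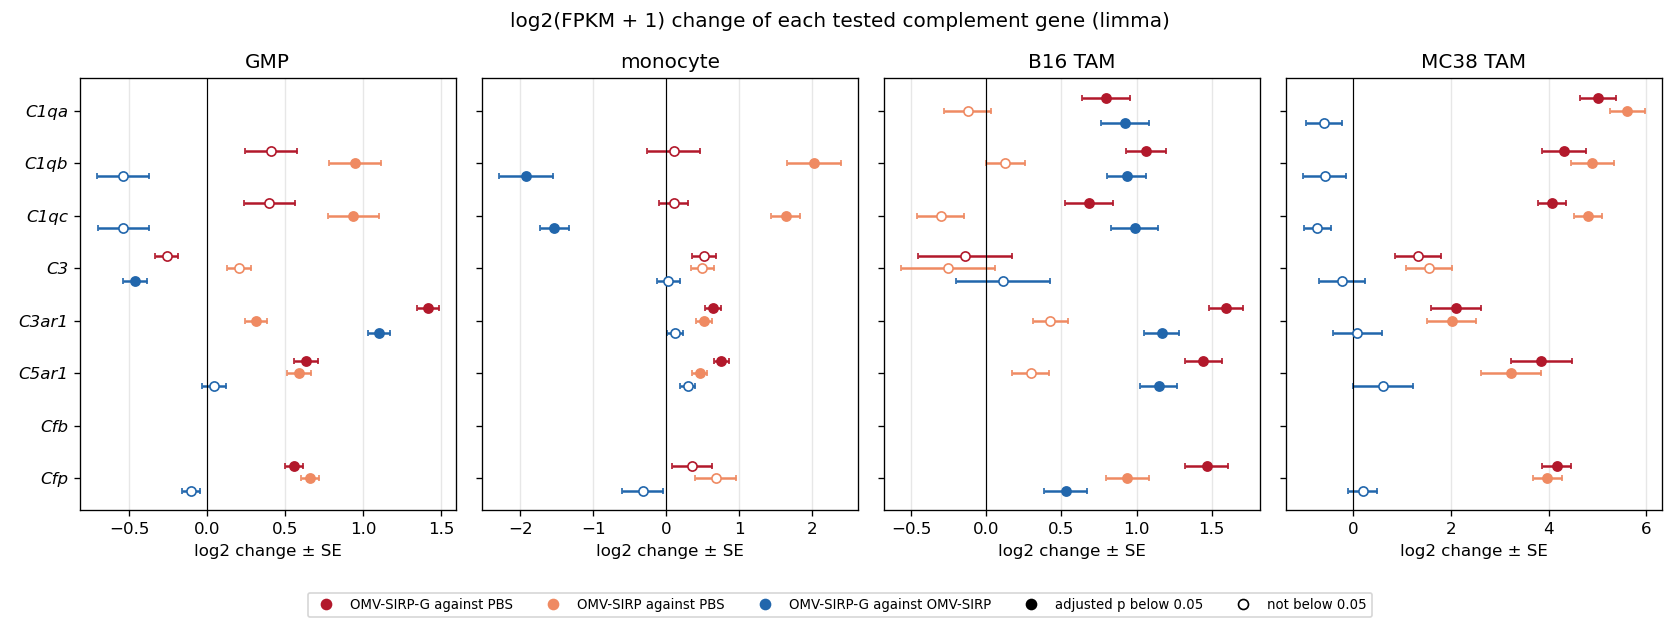
Log2 change of each tested complement gene with its standard error, in GMP, monocytes, B16 TAM and MC38 TAM, for OMV-SIRP-G against PBS, OMV-SIRP against PBS and OMV-SIRP-G against OMV-SIRP. Filled points have a limma adjusted p below 0.05, and the axis range differs between panels. In B16 TAM the 6 filled genes for OMV-SIRP-G lie at 0.68 to 1.59 against PBS, and in MC38 TAM both treatments lie far to the right of 0 for the C1q chains.

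In B16 TAM all chains of C1q rose after OMV-SIRP-G, both against PBS and against OMV-SIRP. *C1qb* had 2477, 2459 and 2490 FPKM after OMV-SIRP-G, 1131, 1166 and 1649 FPKM after OMV-SIRP, and 1218, 1203 and 1139 FPKM after PBS. The OMV-SIRP-G libraries were all above the others, while those of OMV-SIRP and PBS overlapped. The log2 change was 1.06 ± 0.13 against PBS (SE, limma adjusted p = 0.000517) and 0.93 ± 0.13 against OMV-SIRP (adjusted p = 0.0016). *C1qa* had 2053, 1969 and 2188 FPKM after OMV-SIRP-G, 979.9, 930.4 and 1427 FPKM after OMV-SIRP, and 1380, 1099 and 1112 FPKM after PBS. It changed by 0.80 ± 0.16 against PBS (adjusted p = 0.00746) and by 0.92 ± 0.16 against OMV-SIRP (adjusted p = 0.00454). *C1qc* had 1005, 985.5 and 1084 FPKM after OMV-SIRP-G, 460, 433.8 and 689.6 FPKM after OMV-SIRP, and 688.9, 618.5 and 607 FPKM after PBS. For both of these chains too, only the OMV-SIRP-G libraries stood clear of the rest. *C1qc* changed by 0.68 ± 0.16 against PBS (adjusted p = 0.0154) and by 0.99 ± 0.16 against OMV-SIRP (adjusted p = 0.00294). Its call against PBS was lost without OMV-SIRP-G replicate 3, PBS replicate 2 or PBS replicate 3 (adjusted p up to 0.0575). After OMV-SIRP against PBS, *C1qa*, *C1qb* and *C1qc* changed by -0.12 ± 0.16, 0.13 ± 0.13 and -0.30 ± 0.16 and none passed the test (adjusted p = 0.89, 0.848 and 0.61). The third OMV-SIRP library was the highest of its group for each chain, and without it *C1qc* passed as lower after OMV-SIRP (-0.51, adjusted p = 0.0183).

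Genes of macrophages rose with the C1q chains in B16 TAM, and those of melanocytes fell. Of the 15 macrophage identity genes, 14 rose after OMV-SIRP-G against PBS, with a median log2 change of 1.21, and 13 rose against OMV-SIRP, with a median of 1.14. All 7 melanocyte genes fell in both comparisons, with medians of -1.62 and -1.42. The melanocyte genes summed to 813 to 911 FPKM after OMV-SIRP-G, 2389.6 to 2646 FPKM after OMV-SIRP and 2909 to 3176 FPKM after PBS. All 5 tested erythroid genes fell after each treatment against PBS. Erythroid genes summed to 3234 to 3267 FPKM after OMV-SIRP-G, 2220 to 3102 FPKM after OMV-SIRP and 16536 to 17907 FPKM after PBS. T and NK cell genes also fell, 10 of 10 after OMV-SIRP-G (median -1.43) and 8 of 10 after OMV-SIRP (median -1.36). Of all tested genes, 7.28% fell after OMV-SIRP-G against PBS and 0.566% after OMV-SIRP. The macrophage identity genes summed to 8879.6 to 9239.8 FPKM after OMV-SIRP-G, 3829 to 5353 FPKM after OMV-SIRP and 3332 to 3521 FPKM after PBS. Against OMV-SIRP, 6 of 10 dendritic cell genes fell after OMV-SIRP-G (median -0.91), and so did 2 of 4 B cell genes, 3 of 4 fibroblast genes and 6 of 13 mitochondrially encoded genes (median -0.55). There 5.62% of all tested genes fell. The mitochondrially encoded genes summed to 96446 to 105800 FPKM after OMV-SIRP-G, 134390 to 160630 FPKM after OMV-SIRP and 110360 to 144980 FPKM after PBS. Neutrophil genes also rose after OMV-SIRP-G, 3 of 5 against PBS. Of 9 monocyte genes, 5 rose and 1 fell in that comparison. The part of all these genes in the rise of C1q was not tested.

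In MC38 TAM the C1q chains were far higher after either treatment than in the PBS libraries. *C1qa* had 302.8, 304 and 282.9 FPKM after OMV-SIRP-G, 485.9, 474.3 and 392.8 FPKM after OMV-SIRP, and 4.46, 6.87 and 17.2 FPKM after PBS. *C1qb* had 332.3, 343.8 and 341.7 FPKM after OMV-SIRP-G, 658.1, 547.3 and 365 FPKM after OMV-SIRP, and 6.996, 17.5 and 32.7 FPKM after PBS. *C1qc* had 114.5, 120.3 and 118.7 FPKM after OMV-SIRP-G, 221.8, 195.9 and 175 FPKM after OMV-SIRP, and 3.48, 6.22 and 9.905 FPKM after PBS. The groups did not overlap for any chain, with OMV-SIRP highest and PBS lowest. Against PBS, *C1qa* changed by 5.01 ± 0.36 after OMV-SIRP-G (limma adjusted p = 0.000143) and by 5.61 ± 0.36 after OMV-SIRP (adjusted p = 0.000149). *C1qb* changed by 4.32 ± 0.44 after OMV-SIRP-G (adjusted p = 0.000597) and by 4.90 ± 0.44 after OMV-SIRP (adjusted p = 0.000455). For *C1qc* the changes were 4.07 ± 0.28 after OMV-SIRP-G (adjusted p = 0.00014) and 4.81 ± 0.28 after OMV-SIRP (adjusted p = 8.74e-05). The calls of the chains against PBS held without each library in turn. Between OMV-SIRP-G and OMV-SIRP the changes were -0.60 ± 0.36 for *C1qa*, -0.58 ± 0.44 for *C1qb* and -0.73 ± 0.28 for *C1qc*, and none passed (adjusted p = 0.59, 0.694 and 0.35).

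The macrophage identity genes moved with C1q in MC38 as well. Of the 15, 13 rose after OMV-SIRP-G against PBS and 13 after OMV-SIRP, with median log2 changes of 2.86 and 3.09. *Csf1r*, the receptor through which macrophages receive their growth factor, had 83.3, 75.2 and 75.9 FPKM after OMV-SIRP-G, 84.8, 109 and 42.7 FPKM after OMV-SIRP, and 4.91, 7.997 and 7.21 FPKM after PBS. Neutrophil genes summed to 35.2 to 50.9 FPKM after OMV-SIRP-G, 22.2 to 72.2 FPKM after OMV-SIRP and 258 to 574 FPKM after PBS. Other lists moved too. After OMV-SIRP-G against PBS, 4 of 7 dendritic cell genes and 6 of 10 T and NK cell genes rose, and after OMV-SIRP against PBS 3 of 6 fibroblast genes and 13 of 13 mitochondrially encoded genes rose. The content of macrophages and the level of C1q per macrophage therefore cannot be told apart in the comparisons with PBS. The mitochondrially encoded genes summed to 39990 to 42550 FPKM after OMV-SIRP-G, 104650 to 174790 FPKM after OMV-SIRP and 15907 to 27265 FPKM after PBS, and their part in these changes was not tested. Scaling the libraries to equal FPKM totals left 4.92, 4.19 and 4.13 for *C1qa*, *C1qb* and *C1qc* after OMV-SIRP against PBS, where it moved the median of all genes to -0.54.

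**Figure D3:**
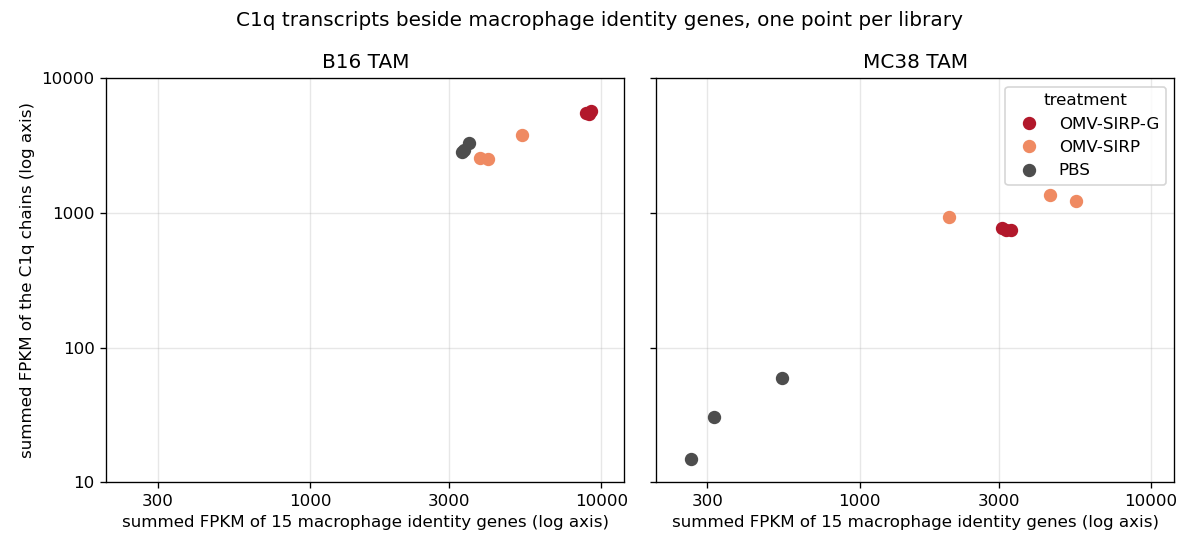
Summed FPKM of the C1q chains against the summed FPKM of 15 macrophage identity genes, both on log axes, one point per library, in B16 TAM and MC38 TAM. The OMV-SIRP-G libraries of B16 lie at 5414 to 5762 FPKM of C1q, above the others, and the PBS libraries of MC38 lie at 14.9 to 59.8 FPKM of C1q with the lowest macrophage sums.

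In monocytes *C1qb* was low but rose after OMV-SIRP against PBS and fell after OMV-SIRP-G against OMV-SIRP. *C1qc* had the same order of groups, but it was tested only because it was high after OMV-SIRP. *C1qb* had 3.335, 1.325 and 3.53 FPKM after OMV-SIRP-G, 10.8, 13.01 and 14.1 FPKM after OMV-SIRP, and 1.42, 4.77 and 1.65 FPKM after PBS. *C1qc* had 0.689, 0.584 and 0.639 FPKM after OMV-SIRP-G, 3.07, 4.19 and 4.02 FPKM after OMV-SIRP, and 0.339, 1.07 and 0.279 FPKM after PBS. In both genes the OMV-SIRP libraries stood clear of the rest, and those of OMV-SIRP-G and PBS overlapped. *C1qb* rested on 196 to 261 reads per OMV-SIRP library and on 23 to 68 reads in the other libraries. The log2 changes after OMV-SIRP against PBS were 2.02 ± 0.37 for *C1qb* (limma adjusted p = 0.0137) and 1.64 ± 0.20 for *C1qc* (adjusted p = 0.0027). After OMV-SIRP-G against OMV-SIRP, *C1qb* fell by 1.92 ± 0.37 (adjusted p = 0.0362) and *C1qc* by 1.53 ± 0.20 (adjusted p = 0.00784). After OMV-SIRP-G against PBS the changes were 0.10 ± 0.37 and 0.10 ± 0.20, neither of which passed (adjusted p = 0.906 and 0.809). The call of *C1qb* against PBS was lost without any 1 of the OMV-SIRP libraries (adjusted p up to 0.0693), and its call against OMV-SIRP without any 1 of the 6 libraries compared (up to 0.159), with a pseudocount of 0.1 (0.0582) and with no filter (0.091). With no filter, *C1qc* had adjusted p = 0.00705 for OMV-SIRP against PBS and 0.0204 for OMV-SIRP-G against OMV-SIRP by limma. The call of *C1qc* against OMV-SIRP was lost without OMV-SIRP-G replicate 1 or 2 or OMV-SIRP replicate 2 or 3 (up to 0.0584). Monocyte PBS replicate 2, which stood apart, was the highest of its group for *C1qb* and *C1qc*, and leaving it out widened the change of *C1qb* after OMV-SIRP to 2.42. *C1qa* was below the filter, with 0.465, 0.181 and 0.462 FPKM after OMV-SIRP-G, 0.978, 0.81 and 1.70 FPKM after OMV-SIRP, and 0.286, 0.367 and 0.115 FPKM after PBS. These values rested on 2 to 30 reads. Of the 14 tested macrophage identity genes, 2 rose and 1 fell after each treatment against PBS, while 4 of 4 tested erythroid genes fell after OMV-SIRP (median log2 change -3.42) and 4 of 5 B cell genes fell (median -1.64). After OMV-SIRP against PBS, 5.46% of all tested genes fell. For OMV-SIRP-G against OMV-SIRP, 1 of 14 macrophage identity genes rose, and 2 of 4 dendritic cell genes fell and 1 rose. The dendritic cell genes summed to 30.6 to 35.2 FPKM after OMV-SIRP-G, 76.976 to 90.95 FPKM after OMV-SIRP and 39.6 to 75.3 FPKM after PBS. The part of these cells in the change of C1q was not tested.

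In GMP too the OMV-SIRP libraries were the highest for *C1qb* and *C1qc*. *C1qb* had 3.60, 2.67 and 2.97 FPKM after OMV-SIRP-G, 5.325, 4.045 and 5.44 FPKM after OMV-SIRP, and 1.37, 2.65 and 2.315 FPKM after PBS. The OMV-SIRP libraries were clear of the rest. The lowest OMV-SIRP-G library (2.671 FPKM, 49 reads) was barely above the highest PBS library (2.65 FPKM, 51 reads). *C1qb* rose by 0.95 ± 0.17 after OMV-SIRP against PBS (limma adjusted p = 0.00542), and changed by 0.41 ± 0.17 after OMV-SIRP-G (adjusted p = 0.165). *C1qc* had 0.960, 0.522 and 1.02 FPKM after OMV-SIRP-G, 1.77, 1.56 and 1.61 FPKM after OMV-SIRP, and 0.524, 0.117 and 0.546 FPKM after PBS. Here the OMV-SIRP libraries were clear of the rest, and the others overlapped. The change was 0.94 ± 0.16 after OMV-SIRP (adjusted p = 0.00424) and 0.40 ± 0.16 after OMV-SIRP-G (adjusted p = 0.159). These p-values are of a gene tested only because it was high after OMV-SIRP, and with no filter they were 0.0115 and 0.255. Between OMV-SIRP-G and OMV-SIRP both chains changed by -0.54, with adjusted p = 0.0646 for *C1qb* and 0.0562 for *C1qc*. Both passed as lower when those groups were fitted alone (adjusted p = 0.0216 and 0.0286) and with limma voom on recovered reads, where the change of *C1qc* was -1.03. In the comparison of OMV-SIRP with PBS, 4 of 14 tested macrophage identity genes rose and 5 fell, 10 of 10 neutrophil genes rose (median log2 change 0.82) and 4 of 4 erythroid genes fell (median -1.97), and their part in the rise of C1q was not tested. Of all tested genes 10.6% rose and 7.52% fell there. *C1qa* rested on 0 to 14 reads, with 0.690 to 0.798 FPKM after OMV-SIRP-G, 0.242 to 0.822 FPKM after OMV-SIRP and 0 to 0.326 FPKM after PBS.

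The balance of the chains differed between the marrow populations and the tumours. *C1qb* gave 63.4% to 85.7% of the summed C1q FPKM in the 9 GMP libraries and 63.4% to 80.7% in monocytes. *C1qa* gave 0 to 20% and 4.499% to 13.98%. These marrow shares rested on few reads, 0 to 14 for *C1qa* in GMP and 2 to 30 in monocytes. *C1qc* had 4 to 70 reads in GMP and 9 to 144 in monocytes. In B16 TAM *C1qb* gave 37.1% to 46.1% and *C1qa* 36.4% to 42.0%. In treated MC38 TAM, *C1qb* gave 44.3% to 46.0% after OMV-SIRP-G and 39.1% to 48.2% after OMV-SIRP, and it gave 46.8% to 57.2% after PBS. *C1qa* gave 38.1% to 40.4% after OMV-SIRP-G, 35.6% to 42.1% after OMV-SIRP and 22.5% to 29.9% after PBS, where the chain rested on 89 to 279 reads. In B16 TAM the share of *C1qb* was 43.2% to 45.4% after OMV-SIRP-G, 43.8% to 46.1% after OMV-SIRP and 37.1% to 41.2% after PBS, so both treatments lay above PBS while overlapping each other. *C1qc* took the opposite place there, with 18.2% to 18.8% after OMV-SIRP-G, 17.1% to 18.3% after OMV-SIRP and 21.0% to 21.2% after PBS. The shares are ratios within a library and were not tested.

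**Figure D4:**
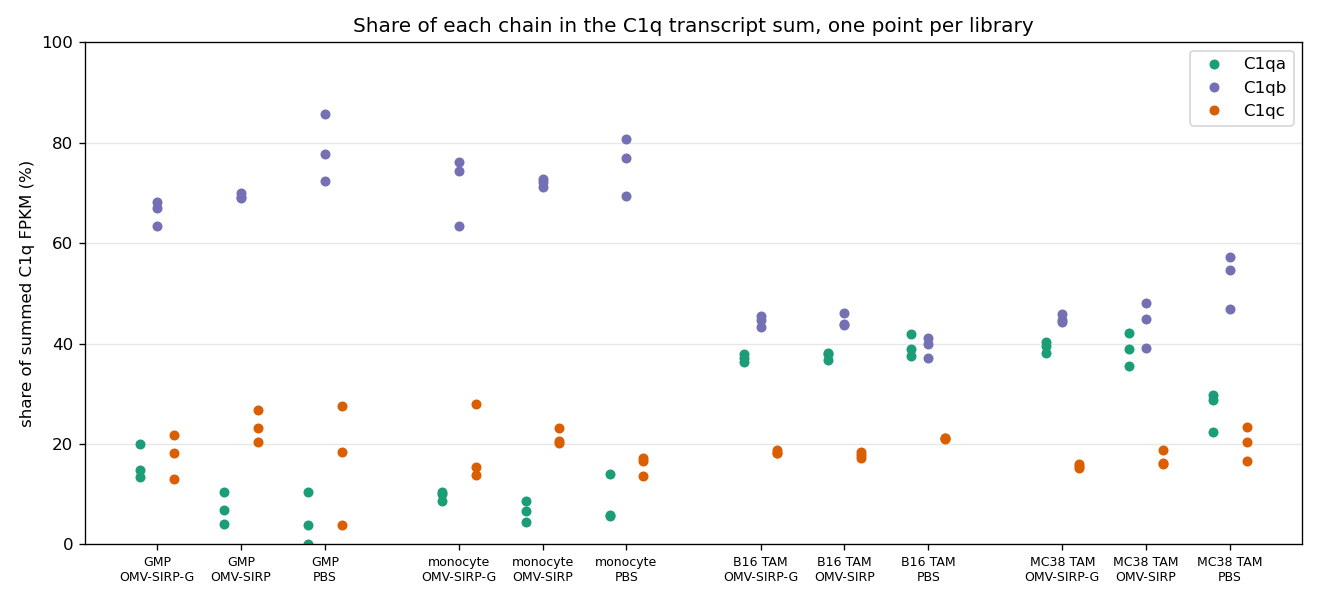
Share of *C1qa*, *C1qb* and *C1qc* in the summed FPKM of the C1q chains, in percent, one point per library, in the 12 groups. *C1qb* makes up at least 63.4% in GMP and monocytes and at most 46.1% in B16 TAM, and the *C1qa* share of the PBS libraries in MC38 lies below that of the treated ones.

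*C3* was the most abundant of these genes in marrow, and it passed the test in 1 of the 12 comparisons. In GMP it had 304, 334.6 and 363.2 FPKM after OMV-SIRP-G, 474.3, 453.1 and 452.1 FPKM after OMV-SIRP, and 415.7, 379.7 and 402 FPKM after PBS. The groups did not overlap, with OMV-SIRP highest and OMV-SIRP-G lowest. *C3* fell after OMV-SIRP-G against OMV-SIRP (-0.46 ± 0.07, limma adjusted p = 0.00345). Against PBS the changes were -0.26 ± 0.07 after OMV-SIRP-G (adjusted p = 0.0542) and 0.20 ± 0.07 after OMV-SIRP (adjusted p = 0.0916). With limma voom on recovered reads both passed (adjusted p = 0.008 and 0.0339), and the first also did without OMV-SIRP-G replicate 3 (0.0428). In monocytes *C3* had 280.9, 319.5 and 264.7 FPKM after OMV-SIRP-G, 277.5, 256.9 and 315.4 FPKM after OMV-SIRP, and 219.7, 166.5 and 219.8 FPKM after PBS. Both treatments were above PBS in every library, but neither change passed (0.52 ± 0.16, adjusted p = 0.147, and 0.49 ± 0.16, adjusted p = 0.101). Without PBS replicate 2, the lowest library, both passed, at 0.39 for OMV-SIRP-G (adjusted p = 0.0459) and 0.36 for OMV-SIRP (0.0318). In B16 TAM *C3* lay at 15.1 to 18.6 FPKM after OMV-SIRP-G, 8.47 to 20.5 FPKM after OMV-SIRP and 12.85 to 22.5 FPKM after PBS, with overlap and no call (adjusted p = 0.81 to 0.882). In MC38 TAM it had 29.8, 30.5 and 31.3 FPKM after OMV-SIRP-G, 33.8, 83.5 and 16.1 FPKM after OMV-SIRP, and 9.42, 11.3 and 14.3 FPKM after PBS. The changes of 1.33 ± 0.47 and 1.56 ± 0.47 against PBS missed the threshold (adjusted p = 0.0773 and 0.0648). The change after OMV-SIRP passed without OMV-SIRP replicate 3 (2.11, adjusted p = 0.00677) and with limma voom on recovered reads (0.0495). That after OMV-SIRP-G passed without OMV-SIRP replicate 2 and PBS replicate 3 together (1.48, adjusted p = 0.00685), a pair left out after the data were seen, and with the groups fitted alone (0.00276).

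Properdin, which acts on the alternative pathway, rose with OMV-SIRP in B16 TAM where the C1q chains did not pass. *Cfp* had 430.4, 411.9 and 403.7 FPKM after OMV-SIRP-G, 258.4, 248.9 and 370.5 FPKM after OMV-SIRP, and 156.4, 142.3 and 150.7 FPKM after PBS, with no overlap between the groups. The log2 change against PBS was 1.47 ± 0.14 after OMV-SIRP-G (limma adjusted p = 0.00011) and 0.94 ± 0.14 after OMV-SIRP (adjusted p = 0.00823). The second lost its call without PBS replicate 2 (adjusted p = 0.0507). *Cfp* also rose after OMV-SIRP-G against OMV-SIRP (0.53 ± 0.14, adjusted p = 0.0375), a call lost without any 1 of 5 of the 6 libraries compared (adjusted p up to 0.122) and kept without OMV-SIRP replicate 3. It was also lost with no filter (0.0908) and with the groups fitted alone (0.0852). In MC38 TAM *Cfp* had 121.9, 116.4 and 119.6 FPKM after OMV-SIRP-G, 126.1, 137 and 65.05 FPKM after OMV-SIRP, and 7.54, 3.98 and 6.03 FPKM after PBS. Both treatments were far above PBS and overlapped each other. The changes against PBS were 4.17 ± 0.29 (adjusted p = 0.000141) and 3.97 ± 0.29 (adjusted p = 0.000275). In GMP *Cfp* had 41.7, 45.5 and 41.0 FPKM after OMV-SIRP-G, 44.1, 46.8 and 46.75 FPKM after OMV-SIRP, and 27.0, 29.0 and 30.1 FPKM after PBS. It rose after both (0.56 ± 0.06, adjusted p = 0.000274, and 0.66 ± 0.06, adjusted p = 8.23e-05). Neutrophil genes moved with it in GMP, where 6 of 10 rose after OMV-SIRP-G and 10 of 10 after OMV-SIRP, and their part in the change was not tested. In monocytes *Cfp* had 73.3, 60.2 and 72.0 FPKM after OMV-SIRP-G, 78.25, 88.0 and 91.3 FPKM after OMV-SIRP, and 45.3, 88.45 and 37.5 FPKM after PBS. PBS replicate 2 lay within the OMV-SIRP group. Neither change against PBS passed (0.35 ± 0.28, adjusted p = 0.579, and 0.68 ± 0.28, adjusted p = 0.192), and without that library both did (0.71, adjusted p = 0.00545, and 1.04, adjusted p = 0.000424). With equal FPKM totals the change after OMV-SIRP also passed (0.93, adjusted p = 0.00933).

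*Cfb*, the protease that properdin acts with, was tested in no population. Because of the exon bases shared with *Gm20547*, the listed values of *Cfb* may not give its true level. It reached 0.389 to 1.54 FPKM in B16 TAM after OMV-SIRP-G, 0 to 0.305 FPKM after OMV-SIRP and 0 to 0.705 FPKM after PBS. In MC38 TAM it had 0.449, 0.834 and 0.715 FPKM after OMV-SIRP-G, from 20 to 39 reads, and at most 0.0524 FPKM after OMV-SIRP and 0.0176 FPKM after PBS, from at most 2 reads. In the marrow groups it did not exceed 0.437 FPKM.

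The receptor for C3a rose in at least 1 comparison of every population. In GMP *C3ar1* had 7.135, 7.09 and 8.41 FPKM after OMV-SIRP-G, 3.03, 2.98 and 2.89 FPKM after OMV-SIRP, and 2.11, 2.15 and 2.33 FPKM after PBS. The groups did not overlap. It rose by 1.42 ± 0.07 after OMV-SIRP-G against PBS (limma adjusted p = 2.61e-06), by 1.10 ± 0.07 against OMV-SIRP (adjusted p = 3.89e-05) and by 0.31 ± 0.07 after OMV-SIRP against PBS (adjusted p = 0.0147). In GMP 8 of 14 macrophage identity genes rose and 1 fell after OMV-SIRP-G against PBS, and 8 rose against OMV-SIRP. Of 9 monocyte genes, 3 rose and 1 fell against PBS, and 5 rose against OMV-SIRP. The part of these genes in the rise of *C3ar1* was not tested. The call of *C3ar1* after OMV-SIRP against PBS was lost with libraries scaled to equal FPKM totals (0.17, adjusted p = 0.153) and without OMV-SIRP replicate 1 (adjusted p = 0.0512). In B16 TAM it had 67.8, 77.7 and 67.35 FPKM after OMV-SIRP-G, 33.4, 28.7 and 31.05 FPKM after OMV-SIRP, and 22.75, 24.4 and 21.35 FPKM after PBS, again with no overlap. It rose by 1.59 ± 0.11 after OMV-SIRP-G against PBS (adjusted p = 2.72e-05) and by 1.17 ± 0.11 against OMV-SIRP (adjusted p = 0.000237), and changed by 0.43 ± 0.11 after OMV-SIRP against PBS (adjusted p = 0.144). In monocytes *C3ar1* had 32.7, 32.8 and 27.8 FPKM after OMV-SIRP-G, 30.8, 26.35 and 28.2 FPKM after OMV-SIRP, and 20.2, 17.95 and 20.4 FPKM after PBS. Both treatments lay above PBS and overlapped each other. The changes of 0.65 ± 0.11 (adjusted p = 0.0154) and 0.52 ± 0.11 (adjusted p = 0.0236) against PBS passed, but without OMV-SIRP-G replicate 1 or 2 the first did not (adjusted p up to 0.094). Without any 1 OMV-SIRP library, without PBS replicate 1 or 3, or with no filter, the second did not pass (up to 0.111). Neither passed with equal FPKM totals (0.14 and 0.0986) or with the groups compared fitted alone (0.0932 and 0.093). In MC38 TAM it had 32.1, 27.9 and 27.3 FPKM after OMV-SIRP-G, 26.5, 57.25 and 13.1 FPKM after OMV-SIRP, and 4.89, 3.60 and 11.6 FPKM after PBS. The lowest OMV-SIRP library lay close to the highest PBS library. The changes were 2.10 ± 0.51 (adjusted p = 0.0198) and 2.02 ± 0.51 (adjusted p = 0.0357). The first was lost without any 1 OMV-SIRP-G library or PBS replicate 1 or 2 (up to 0.0695), and the second without OMV-SIRP replicate 1 or 2 or PBS replicate 1 or 2 (up to 0.097), with no filter (0.0785) and with the groups fitted alone (0.115).

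The receptor for C5a also rose in at least 1 comparison of every population. In GMP *C5ar1* had 35.4, 40.01 and 42.1 FPKM after OMV-SIRP-G, 39.97, 37.8 and 36.1 FPKM after OMV-SIRP, and 23.3, 24.3 and 27.0 FPKM after PBS. It rose by 0.63 ± 0.08 after OMV-SIRP-G (limma adjusted p = 0.000693) and by 0.59 ± 0.08 after OMV-SIRP (adjusted p = 0.000824). The difference between the vesicles was 0.04 ± 0.08 (adjusted p = 0.748), and the groups overlapped. In monocytes it had 31.9, 31.7 and 29.5 FPKM after OMV-SIRP-G, 25.75, 26.05 and 23.7 FPKM after OMV-SIRP, and 20.15, 16.35 and 17.7 FPKM after PBS, with no overlap. The changes against PBS were 0.75 ± 0.10 (adjusted p = 0.00494) and 0.46 ± 0.10 (adjusted p = 0.0301). The second was lost without any 1 OMV-SIRP library or PBS replicate 3 (adjusted p up to 0.123), and with no filter (0.0609). Both were lost with equal FPKM totals (adjusted p = 0.0846 and 0.119) and with the groups fitted alone (0.0529 and 0.132). Between OMV-SIRP-G and OMV-SIRP the change of 0.29 ± 0.10 did not pass (adjusted p = 0.218), except with these groups fitted alone (0.0219). In B16 TAM *C5ar1* had 120.1, 105.4 and 124.7 FPKM after OMV-SIRP-G, 49.2, 55.8 and 51.15 FPKM after OMV-SIRP, and 36.3, 44.7 and 46.3 FPKM after PBS, and no groups overlapped. It rose by 1.44 ± 0.12 after OMV-SIRP-G against PBS (adjusted p = 6.04e-05) and by 1.15 ± 0.12 against OMV-SIRP (adjusted p = 0.000358), and changed by 0.29 ± 0.12 after OMV-SIRP against PBS (adjusted p = 0.469). In MC38 TAM it had 28.9, 35.8 and 34.3 FPKM after OMV-SIRP-G, 26.0, 42.5 and 8.23 FPKM after OMV-SIRP, and 0, 2.32 and 2.90 FPKM after PBS. Both treatments lay above PBS. The changes were 3.85 ± 0.62 (adjusted p = 0.00377) and 3.24 ± 0.62 (adjusted p = 0.0135). With limma voom on recovered reads they were 6.36 and 5.65 and did not pass (adjusted p = 0.064 and 0.127), and the second was also lost without OMV-SIRP replicate 1 (adjusted p = 0.051) and with the groups fitted alone (0.0612).

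The other complement genes came from lists for the rest of the cascade. In B16 TAM after OMV-SIRP-G against PBS, 6 of 9 tested complement and C1q receptors rose and none fell, with a median log2 change of 0.84. Of all tested genes 7.83% rose and 7.28% fell in that comparison. They included *Itgam*, a chain of complement receptor 3 (2.15 ± 0.12, limma adjusted p = 5.39e-06), *Lrp1*, an endocytic receptor that can bind C1q (1.44 ± 0.17, adjusted p = 0.000336) and *Cd93*, first described as a C1q receptor (1.41 ± 0.17, adjusted p = 0.000364). Lower there were 3 of 7 complement regulators, with *Clu*, an inhibitor of the terminal complex, at -2.76 ± 0.39 (adjusted p = 0.00122), *Vtn*, which also binds that complex, at -3.42 ± 0.67 (adjusted p = 0.00959) and *Serping1*, the inhibitor of C1r and C1s, at -1.997 ± 0.57 (adjusted p = 0.044). Of the 4 tested classical pathway proteases and C4 genes, 2 fell, *C2* (-1.40 ± 0.23, adjusted p = 0.00283) and *C1s1* (-1.11 ± 0.31, adjusted p = 0.0366). Of 4 tested alternative and terminal pathway genes 2 fell, but this list was low. It summed to 0.8867 to 3.2844 FPKM after OMV-SIRP-G, 2.625 to 14.506 FPKM after OMV-SIRP and 11.332 to 13.979 FPKM after PBS. Among those tested, *C8a*, *C8b* and *C9* were at 0 in all OMV-SIRP-G libraries. They passed the filter only through the other groups, so a fall of these genes was tied to their inclusion. None of 3 lectin pathway genes passed. The melanocyte genes fell in the same comparison, as given above, and their part in these changes was not tested. In MC38 TAM 6 of 9 receptors rose after each treatment, where 13.1% of all tested genes rose after OMV-SIRP-G and 7.4% after OMV-SIRP. One of the 9, *C1qbp*, fell after OMV-SIRP-G (-0.86 ± 0.23, limma adjusted p = 0.0286). Among those that rose was *Itgax*, a chain of complement receptor 4, with a log2 change of 4.94 ± 0.36 after OMV-SIRP-G (adjusted p = 0.000144) and 4.64 ± 0.36 after OMV-SIRP (adjusted p = 0.000393). No MC38 regulator of 5 passed, and *C4b*, a target of the C1 complex, rose after OMV-SIRP (1.92 ± 0.42, adjusted p = 0.0223).

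In the marrow fewer genes of the cascade passed the filter, 1 each of the classical, lectin and terminal lists. *Fcnb*, which encodes ficolin B, a recognition molecule of the lectin pathway in myeloid cells, had 240.8, 256.5 and 248.3 FPKM in GMP after OMV-SIRP-G, 433.6, 459.1 and 479.8 FPKM after OMV-SIRP, and 407.5, 471.6 and 495.4 FPKM after PBS. Only the OMV-SIRP-G libraries were low. *Fcnb* fell by 0.88 ± 0.08 after OMV-SIRP-G, both against PBS (limma adjusted p = 0.000136) and against OMV-SIRP (adjusted p = 0.00022). In monocytes it fell by 1.85 ± 0.29 after OMV-SIRP-G against PBS (adjusted p = 0.0105). There 4 of 10 progenitor genes also fell (median log2 change -0.75), where 2.14% of all tested genes fell. The 10 genes summed to 246 to 294 FPKM after OMV-SIRP-G and 816 to 1849 FPKM after PBS. Among 10 neutrophil genes in GMP, 6 rose after OMV-SIRP-G against PBS. Against OMV-SIRP, where 8.12% of all tested genes fell and 6.7% rose, 6 of the neutrophil genes fell and 3 rose. The part of these genes in the fall of *Fcnb* was not tested. *C5ar2*, the second receptor for C5a, rose in monocytes after OMV-SIRP-G (0.62 ± 0.13, adjusted p = 0.0356) and after OMV-SIRP (0.60 ± 0.13, adjusted p = 0.0242). *Cd55*, which disassembles the C3-cleaving enzymes at the cell surface, rose in GMP after OMV-SIRP-G against OMV-SIRP (0.49 ± 0.07, adjusted p = 0.00164) and fell after OMV-SIRP against PBS (-0.33 ± 0.07, adjusted p = 0.0106).

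The genes most like the C1q chains were sought over the 18 TAM libraries, by the Pearson correlation of log2(FPKM + 1), centred within each tumour, with the mean of the chains, among 10217 genes. The 5 highest were *Tyrobp*, an adaptor of myeloid receptors (r = 0.98, with 0.97 within B16 and 0.98 within MC38), *Cotl1*, an actin-binding protein (0.98, with 0.94 and 0.98), *Fos*, a subunit of AP-1 (0.98, with 0.78 and 0.98), *Aif1*, a macrophage marker (0.98, with 0.96 and 0.98) and *Apoe*, the apolipoprotein of macrophages (0.97, with 0.99 and 0.97). Of the other complement genes, *Cfp* ranked 44 (0.94, with 0.73 within B16 and 0.96 within MC38) and *C5ar1* 129 (0.91, with 0.86 and 0.92). *C3ar1* ranked 477 (0.83, with 0.86 and 0.88) and *C3* 1016 (0.73, with 0.08 and 0.81). Within B16, *C5ar1* and *C3ar1* were thus closer to the chains than *Fos*. The libraries share their treatments and their content of macrophages, so these correlations describe the 18 libraries and carry no p.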

How the data were processed

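RNA was extracted with TRIzol and made into libraries with an NEBNext mRNA kit, per the labels' protocols. HISAT2 2.0.5, StringTie, featureCounts 1.5.0-p3 and build GRCm38 are named in the submitters' processing notes. The authors deposited FPKM values in 3 tables. Multiplied by gene length, these gave whole reads for 100% of values (tolerance 0.05), and each table carried its own median-of-ratios scaling.

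From these deposited FPKM, log2(FPKM + 1) was fitted with limma 3.58.1 (R 4.3.3, statmod 1.5.0, trended and robust) to the 9 libraries of a population, over genes with at least 1 FPKM in at least 3 libraries, with Benjamini-Hochberg adjustment and a threshold of 0.05. A log2 change on this scale understates the change of low genes, and its error is an SE. Depth per library was 13036567 to 19822660 reads. The 12 comparisons share libraries within a population. No pair of libraries was a duplicate. The fit was tested on simulated data. These had the same spread for all genes of a population and no library that stood apart, so that test does not cover such libraries. The alternatives were a pseudocount of 0.1, no filter, equal FPKM totals, a replicate block, voom on recovered reads, the groups compared alone and leaving out each library, and, chosen after seeing the data, leaving out 2 MC38 libraries. Up to 3 genes of a list, those with the lowest adjusted p, and the 5 genes most like C1q were named. *Mertk*, *Ly6g*, *Cxcr2* and *C1qbp* were named after their values were seen. The 8 genes, the gene lists and the rule for like genes were chosen with earlier results of these data known. Some results of the gene lists are not reported here.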

Additional observations from a re-analysis of the deposited data

Results flagged for a closer look

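For *C1qa*, *C1qb*, *C1qc*, *Cfp* and *C3*, all libraries of the first group named lay above all libraries of the second in one population and below them in another. The share of all genes that did so is not given here, so how many complement genes did so is not read as a result. The difference between populations was not tested. For OMV-SIRP-G against OMV-SIRP, *C1qa* was higher in B16 TAM (log2 change 0.92) and had a change of -0.60 in MC38 TAM. *C1qb* had a change of 0.93 in B16 TAM, with -0.54 in GMP, -1.92 in monocytes and -0.58 in MC38 TAM. *C1qc* had 0.99 in B16 TAM, with -0.54 in GMP, -1.53 in monocytes and -0.73 in MC38 TAM. Of these values, those in B16 TAM and in monocytes passed the limma test, and those in GMP and MC38 TAM did not. In both marrow populations *C1qc* was tested only because it was high after OMV-SIRP. The monocyte call of *C1qb* was lost on leaving out each library compared in turn (limma adjusted p up to 0.159). That of *C1qc* was lost on leaving out some of them (up to 0.0584). *Cfp* had 0.53 in B16 TAM, which passed, and -0.32 in monocytes, which did not. For OMV-SIRP-G against PBS, *C3* had -0.26 in GMP, 0.52 in monocytes and 1.33 in MC38 TAM, none of which passed.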

How the results depend on the processing

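Over the alternatives, 957 log2 changes of the complement genes were recomputed. Of these, 849 kept their direction and their side of the threshold, 70 were no longer called, 19 were newly called and 19 reversed, none of the last being a called value. The counts of complement genes called moved by over 1.5 times in these cases, and the cause was not tested. In GMP, OMV-SIRP-G against OMV-SIRP, 2 became 4 with voom and 4 with the groups alone. In monocytes, OMV-SIRP against PBS, 4 became 2 with no filter, 1 with the replicate block and 2 with the groups alone, and 1 to 6 on leaving out a library. For OMV-SIRP-G against PBS, 2 became 0 with equal totals, 1 with the replicate block and 0 with the groups alone, and 1 to 4 on leaving out a library. For OMV-SIRP-G against OMV-SIRP, 2 became 1 with a pseudocount of 0.1, with no filter or with the replicate block, and 0 to 1 on leaving out a library. In B16 TAM, OMV-SIRP against PBS, 1 became 0 to 2 on leaving out a library.

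Values that reversed were, with equal totals, *Cfp* in GMP (0.067), *C3* in monocytes (-0.0325) and *C3* in MC38 TAM (0.21), all for OMV-SIRP-G against OMV-SIRP. The last was 0.37 without the 2 MC38 libraries with the fewest gene models above 0. On leaving out a library, the ranges that crossed 0 for OMV-SIRP-G against OMV-SIRP were -0.0098 to 0.11 for *C5ar1* in GMP, -0.0496 to 0.11 for *C3* in monocytes and -0.28 to 0.31 for *C3* in B16 TAM. In MC38 TAM they were -0.78 to 0.37 for *C3*, -0.41 to 0.61 for *C3ar1*, -0.0166 to 1.10 for *C5ar1* and -0.14 to 0.39 for *Cfp*. For OMV-SIRP-G against PBS in monocytes they were -0.13 to 0.50 for *C1qb* and -0.0232 to 0.32 for *C1qc*, and for OMV-SIRP against PBS in B16 TAM -0.0468 to 0.22 for *C1qb* and -0.50 to 0.13 for *C3*.

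Same-numbered libraries did not deviate together throughout (correlations of -0.37 to 0.25). In no comparison was every pair over 0.1, so the libraries were not treated as paired. Some pairs did deviate alike, up to 0.25, so this check cannot exclude a pairing. With the replicate block, 71 of 78 changes kept their call, 6 were no longer called and 1 was newly called. The limma adjusted p of the lost calls in monocytes was 0.0502 for *C1qb*, 0.0665 for *C3ar1* and 0.076 for *C5ar1* (OMV-SIRP against PBS), 0.0575 for *C3ar1* (OMV-SIRP-G against PBS) and 0.122 for *C1qb* (OMV-SIRP-G against OMV-SIRP). It was 0.073 for *C3ar1* in MC38 TAM (OMV-SIRP against PBS), and *C1qc* in GMP was newly called (OMV-SIRP-G against OMV-SIRP, 0.0333).

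Equal FPKM totals moved the median log2 change of all genes by over 0.1, to -0.15 (GMP, OMV-SIRP against PBS), 0.13 (GMP, OMV-SIRP-G against OMV-SIRP), 0.17 and 0.14 (monocytes, OMV-SIRP and OMV-SIRP-G against PBS), and in MC38 TAM -0.54, -0.16 and 0.41 (OMV-SIRP against PBS, OMV-SIRP-G against PBS, OMV-SIRP-G against OMV-SIRP). The share of calls that were higher became 15.6% in place of 58.6% and 85.1% in place of 45.2% in those GMP comparisons. In monocytes it became 62.5% in place of 36.0% (OMV-SIRP against PBS) and 54.6% in place of 65.2% (OMV-SIRP-G against OMV-SIRP), and in B16 TAM 65.1% in place of 53.1% (OMV-SIRP-G against OMV-SIRP). In MC38 TAM it became 13.2% in place of 67.9%, 45.6% in place of 65.6% and 90.6% in place of 38.9%.

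Counts of genes called over the whole table moved by over 1.5 times as follows, with leaving out a library given as a range. In GMP, 2232 for OMV-SIRP against PBS became 1390 to 2144, 1471 for OMV-SIRP-G against PBS became 961 with equal totals and 892 to 1882, and 1821 for OMV-SIRP-G against OMV-SIRP became 1068 to 1333. In monocytes, 1026 for OMV-SIRP against PBS became 570 with equal totals, 520 with the replicate block, 240 with the groups alone and 366 to 3563, the highest without PBS replicate 2. For OMV-SIRP-G against PBS, 442 became 289 with equal totals, 242 with the block, 158 with the groups alone and 202 to 1479, the highest again without PBS replicate 2. For OMV-SIRP-G against OMV-SIRP, 293 became 154 with no filter, 174 with equal totals, 75 with the block, 2067 with the groups alone and 59 to 76. In B16 TAM, 182 for OMV-SIRP against PBS became 112 with no filter and 73 to 144, 1895 for OMV-SIRP-G against PBS became 1177 to 1470, and 1502 for OMV-SIRP-G against OMV-SIRP became 925 with no filter and 991 with the groups alone. In MC38 TAM, 1534 for OMV-SIRP against PBS became 762 with no filter, 4316 with equal totals, 334 with the groups alone and 728 to 2002, and 2809 for OMV-SIRP-G against PBS became 1725 with no filter, 1262 to 2679, and 4701 without the 2 libraries. For OMV-SIRP-G against OMV-SIRP, 54 became 16 with no filter, 223 with equal totals, 8 with the block, 93 with voom, 0 to 189, and 644 without the 2 libraries. Voom on recovered reads called 93 to 3063 genes over the 12 comparisons.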
